A study of Drosophila melanogaster with 2 samples.

Results

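The 60 genes described here encode the machinery of autophagy and of endosomal sorting in Drosophila melanogaster. They were chosen by symbol from the 13968 protein-coding genes of the annotation. The set takes all genes named Atg, Vps or Snx with a number, and CHMP2B, shrb, lsn, Hrs, Stam and TSG101. Chmp1 was not among them. A peak of CG3847-eGFP had its summit within 500 bp of a transcription start site (TSS) of 36 of them, or 60.0%, against 31.0% of all protein-coding genes. Each member was picked by name and not by its own binding. The set was chosen with earlier results of these data known, and no test was applied to the count.

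The measurements came from chromatin immunoprecipitation and sequencing of whole embryos aged 0 to 24 h. The flies were transgenic and carried CG3847, the protein mapped, fused to enhanced green fluorescent protein (eGFP), which an anti-GFP antibody precipitated from chromatin sonicated to 200 to 800 bp. The only group holds 2 biological replicates, so no condition is compared with another. A control experiment is pointed to in the labels but was not used here, so background precipitation is not separated from binding of CG3847. All cells of the embryo were pooled, and a weak peak in many cells cannot be told apart from a strong peak in few. The deposited peaks had passed a threshold on the irreproducible discovery rate (IDR), a measure of how alike a peak ranks across data sets. The optimal set was made from both replicates, and each replicate has a list of its own. Signal means the value that the peak caller gave a peak, on a scale that the labels leave unstated, and read depth is unknown. At the promoter of CG3847 itself the signal was 1194 pooled, 448 in replicate 1 and 745 in replicate 2, and endogenous gene and transgene cannot be told apart there.

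In autophagy a cell wraps part of its cytoplasm in a growing double membrane, which closes into an autophagosome and fuses with the lysosome. The Atg1 kinase starts the process, a class III phosphatidylinositol 3-kinase marks the membrane, Atg9 and Atg2 supply lipid, and 2 ubiquitin-like systems attach Atg8 to the membrane. Endosomal sorting shares the last steps: the ESCRT complexes bud vesicles into the endosome and help to close the autophagosome, retromer and sorting nexins return proteins from endosomes, and the HOPS and CORVET tethers bring endosomes and lysosomes together. In flies these genes are known for their work in the fat body, in nurse cells and at synapses.

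The sequences under 6 of the 9 strongest promoter peaks are shown to let the base composition at the summits be seen. Those of Atg9, Vps50 and Atg18a, whose G+C content in 101 bp at the summit was 36.6%, 30.7% and 40.6%, are not printed here. Each was taken as 121 bp centred on the summit, was trimmed to lie outside annotated exons, and is read 5′ to 3′ on the strand of the named gene. Trimming shortened only the stretch at Vps36, to 78 bp, so that its summit is not in the middle. Capitals mark runs of 8 or more A or T bases. A run of that kind lay within the 121 bp at the summit of 26 of the 36 members, or 72.2%, against 70.6% of the 3069 promoter peaks of protein-coding genes and 55.7% of windows of the same length at 19275 TSSs. The stretch at Vps33B held none, and the one at Atg2 held 6. Their positions are chr3L:5139429-5139549 for CHMP2B, chr3R:5669376-5669496 for Atg17, chr3L:2774029-2774149 for Atg2, chr3R:25473198-25473318 for Vps33B, chr3R:15357021-15357141 for Atg4b and chr3L:13513176-13513253 for Vps36, all on Release 6 (dm6), with bases from RefSeq's copy of that assembly. All 6 lie between a pair of head-to-head genes.
CHMP2B: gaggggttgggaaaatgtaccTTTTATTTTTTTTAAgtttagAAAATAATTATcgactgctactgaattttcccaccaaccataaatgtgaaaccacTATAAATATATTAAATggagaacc
Atg17: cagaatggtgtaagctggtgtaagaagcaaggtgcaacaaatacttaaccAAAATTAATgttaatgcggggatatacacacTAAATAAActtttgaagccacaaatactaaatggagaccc
Atg2: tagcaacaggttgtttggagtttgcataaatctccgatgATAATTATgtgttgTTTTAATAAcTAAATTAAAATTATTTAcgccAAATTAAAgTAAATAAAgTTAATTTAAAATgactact
Vps33B: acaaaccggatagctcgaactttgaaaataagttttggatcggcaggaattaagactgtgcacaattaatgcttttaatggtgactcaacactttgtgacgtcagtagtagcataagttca
Atg4b: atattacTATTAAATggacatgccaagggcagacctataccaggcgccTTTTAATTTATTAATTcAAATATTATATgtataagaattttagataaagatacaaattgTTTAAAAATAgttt
Vps36: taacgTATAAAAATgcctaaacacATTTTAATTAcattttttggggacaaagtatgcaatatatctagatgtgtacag

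A further set is shown for 6 short sequences known from fly or vertebrate promoters, searched on both strands in 200 bp at each summit. TATCGATA is the core of the DNA replication-related element, GGTCACAC the core of the motif bound by M1BP, CACGTG the core of the element bound by Mitf, which regulates lysosomal and autophagy genes, GAGAG the site of GAGA factor and TATAAA a form of the TATA box. CAGCTG, an E-box, has no single factor. None of the 6 contains another. In the 4 stretches printed here, capitals mark every match. The matches of TATCGATA at Atg8a and of CAGCTG at Vps16A lie in the 200 bp but outside the printed stretch. They lie at chrX:5738032-5738168 for Snx27, chrX:10768339-10768470 for Atg8a, chr3R:9245873-9246073 for Vps15 and chr3R:9266905-9267018 for Vps16A, again outside exons and on the gene's strand.
Snx27: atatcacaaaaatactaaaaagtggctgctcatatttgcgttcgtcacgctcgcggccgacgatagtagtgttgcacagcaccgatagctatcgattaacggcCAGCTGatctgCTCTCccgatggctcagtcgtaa
Atg8a: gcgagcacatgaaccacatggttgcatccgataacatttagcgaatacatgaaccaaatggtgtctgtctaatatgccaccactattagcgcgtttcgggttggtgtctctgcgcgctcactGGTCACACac
Vps15: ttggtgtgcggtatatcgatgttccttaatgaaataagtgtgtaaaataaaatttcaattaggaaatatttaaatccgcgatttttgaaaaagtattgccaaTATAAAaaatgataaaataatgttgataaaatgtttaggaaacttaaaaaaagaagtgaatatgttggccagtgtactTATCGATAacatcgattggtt
Vps16A: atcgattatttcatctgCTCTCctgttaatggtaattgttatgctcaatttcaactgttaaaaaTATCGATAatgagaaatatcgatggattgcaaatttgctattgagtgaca

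At least 1 of the 6 was found at 24 of the 36 members. That count was not taken over promoter peaks or TSS windows, so it has no background beside it. TATCGATA was found at 4 members, Atg14, Atg8a, Vps15 and Vps16A, a share of 11.1% against 11.5% of promoter peaks and 6.43% of TSS windows. GGTCACAC was found at 3, Atg7, Atg8a and Vps4, a share of 8.33% against 11.0% and 5.67%. CAGCTG stood in 9 member windows, or 25.0%, against 15.3% and 13.4%. CACGTG stood in none of the 36, where 2.93% of promoter peaks and 2.79% of TSS windows held it. GAGAG (8 members, 22.2%) and TATAAA (8 members, 22.2%) compared with 19.1% and 30.2% of promoter peaks and with 24.9% and 26.8% of TSS windows. In these windows the E-box lay above both backgrounds and each of the others below at least 1 of them, but most of these relations turned with the window. In 100 bp windows CAGCTG was at 3 members (8.33%, against 7.53% and 8.70%), and TATCGATA at 1 (2.78%, against 6.71% and 4.45%). In 300 bp windows TATCGATA was at 8 members (22.2%, against 14.0% and 7.08%), and CAGCTG at 15 (41.7%, against 22.0% and 17.9%). CACGTG was at no member in any of the 3 windows. A match is a string of letters and not a bound site.

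Promoter peaks were spread over all the steps. Of the 21 genes of the autophagy core, 14 had one (66.7%, median signal 252). Of the 15 ESCRT genes, 9 had one (60.0%, median 140). Of the 24 other sorting and tethering genes, 13 had one (54.2%, median 188). Every complex had at least 1 member with a peak. Among groups of more than 1 gene, the class III kinase group (3 of 3) and ESCRT-III with Vps4 (6 of 7) had the highest shares. These shares cover members only. Outside the symbol rule, Pi3K59F of the kinase group and Chmp1 of ESCRT-III had no promoter peak, while Uvrag of the kinase group had a peak. The 36 members held 36 separate peaks. Their median signal was 183 and their middle range 99.2 to 344, against 173 and 113 to 290 for the 4330 protein-coding genes with a promoter peak, and 19 of the 36 lay above the median of all. The median of the members was thus close to that of all genes, and the spread around it wider.

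**Figure D1:**
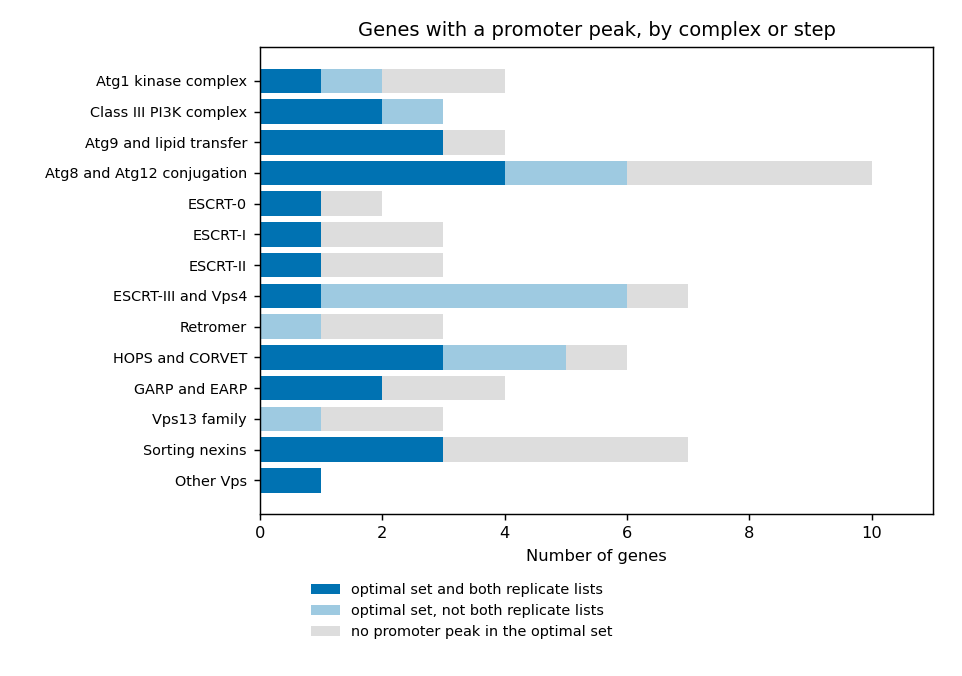
Number of the 60 genes in each complex or step, split by whether a promoter peak was in the optimal set and both replicate lists, in the optimal set but not both lists, or absent from the optimal set. All 3 members of the class III kinase group had a peak, while 5 of the 6 ESCRT-III and Vps4 members with a peak lacked one in at least 1 replicate list.

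The same tally was taken in each replicate. The list of replicate 1 gave a promoter peak to 25 members (41.7%, against 23.8% of protein-coding genes) and that of replicate 2 to 32 (53.3%, against 26.4%). Of the 36 members in the optimal set, 23 were in both lists, or 63.9% against 67.6% of all genes with an optimal promoter peak. Another 8 were listed for replicate 2 only, Vps2 for replicate 1 only, and Vps29, Atg16, Vps13B and Vps8 were in neither. The conservative set gave a promoter peak to 33 members (55.0%, against 30.3%). It held Vps13D and TSG101, which the optimal set lacks, and lacked Vps16B, Vps13B, shrb, Vps20 and Vps4. All 36 had a peak of some strength in the ranked table of each replicate, from which the replicate values are taken.

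Among the genes that start autophagy, Atg17, the scaffold of the Atg1 complex and the fly counterpart of mammalian FIP200, had the strongest peak. At Atg17 (FBgn0037363) it spanned chr3R:5669290-5669647. Its signal was 603.4 pooled, 336.8 in replicate 1 and 261.4 in replicate 2, with the summit 277 bp upstream of its own TSS and 102 bp from that of Xe7. The kinase gene Atg1 had a weaker peak, at 100.2 pooled, 43.6 in replicate 1 and 62.2 in replicate 2, with its summit 77 bp inside the gene. The 2 values for Atg17 lay above those of Atg1 in each replicate without overlap. Atg13 and Atg101, the regulatory partners of the kinase, had no peak past the threshold, and their strongest ranked peaks reached 67.3 and 32.7.

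All 3 members of the class III kinase group had a promoter peak. Pi3K59F, the catalytic subunit, is not a member and had no promoter peak in the optimal set. Vps15, the regulatory subunit of the kinase, had 164.4 pooled, 79.2 in replicate 1 and 88.2 in replicate 2, at a summit 104 bp upstream that no other gene shared. Atg6, the fly Beclin 1, had 160.6, 84.9 and 77.1, with the summit on its TSS and 1 bp from that of Pisd. Atg14, which directs the kinase to the forming autophagosome, had 95.7, 51.3 and 48.6, at 77 bp upstream. These are middling to low values, and the replicates of each lay close together.

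The group that carries lipid to the membrane had the highest median, 538.8. Atg2 (FBgn0044452), which bridges membranes and transfers lipid, had a peak at chr3L:2773941-2774247 with 580.2 pooled, 329.8 in replicate 1 and 251.5 in replicate 2, with the summit 249 bp upstream and 82 bp from the TSS of CG12093. Atg9, the transmembrane protein of the seed vesicles, had 538.8, 297.6 and 252.0, with the summit 100 bp upstream, between Atg9 and CG7747. Atg18a (FBgn0035850), which binds phosphatidylinositol 3-phosphate, had a peak at chr3L:8186741-8186997 with 454.6, 215.1 and 234.0, with the summit 34 bp downstream of its TSS, in the 5′ UTR, and 220 bp from the TSS of ERR, the estrogen-related receptor. Its relative Atg18b had no promoter peak past the threshold: the strongest ranked one was 26.0, and the nearest optimal summit lay 688 bp away.

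Of the 10 conjugation genes 6 had a peak. Atg4b, a protease that trims Atg8, had 409.0 pooled, 210.4 in replicate 1 and 191.7 in replicate 2, at 157 bp upstream and 148 bp from the TSS of Hibch. Atg7, the activating enzyme of both conjugation systems, had 317.9, 193.1 and 133.2, also 157 bp upstream, and 48 bp from the TSS of Sec6, an exocyst subunit. Both were higher in replicate 1. Atg5, the acceptor of Atg12, had 274.0, 109.3 and 169.7, at 31 bp upstream of its nearest TSS, in an annotated intron, and 413 bp from the TSS of Dok. Atg8a, the ubiquitin-like protein that is joined to the membrane, had 230.6, 98.9 and 137.1, at 32 bp upstream, and shared its peak with BTBD9 at 167 bp. These 2 X-linked genes were higher in replicate 2.

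Atg3, the conjugating enzyme for Atg8, had 122.1 pooled, 48.8 in replicate 1 and 78.5 in replicate 2, with the summit 225 bp upstream and 95 bp from the TSS of Nufip. Atg16, which holds the Atg12 and Atg5 conjugate at the membrane, had 92.7, 45.0 and 53.6, at 85 bp inside the gene. Neither passed the threshold in replicate 1, and Atg16 did not in replicate 2 either. The ranked peaks at Atg12, Atg4a and Atg8b reached 42.1, 24.5 and 17.5, and Atg10 had no ranked promoter peak.

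**Figure D2:**
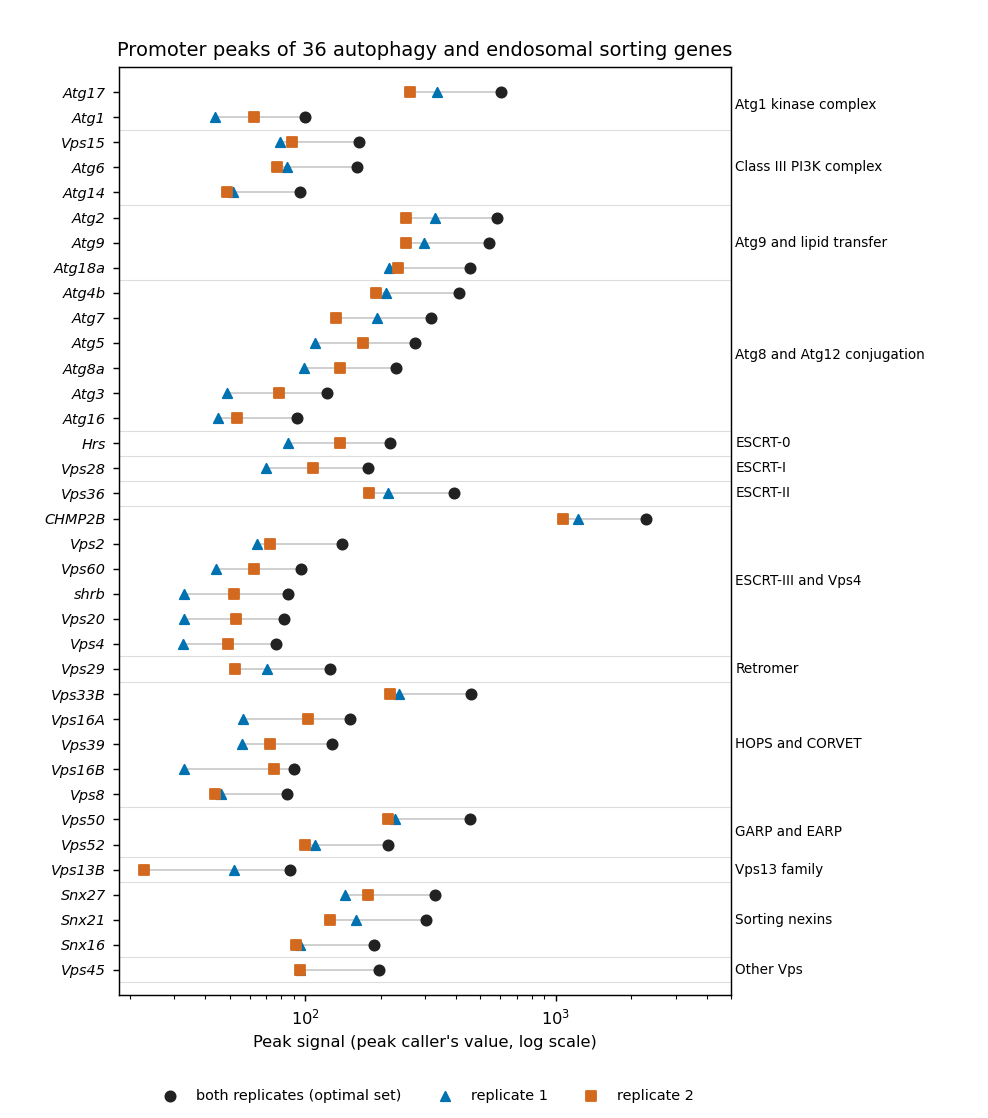
Signal of the promoter peak of each of the 36 members on a log axis, grouped by complex or step, with circles for both replicates pooled, triangles for replicate 1 and squares for replicate 2. CHMP2B stands at 2280.7, and the next, Atg17, at 603.4.

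The strongest peak of all members belonged to an ESCRT gene. CHMP2B (FBgn0035589), a subunit of the ESCRT-III filament, had 2280.7 pooled, 1226.3 in replicate 1 and 1063.3 in replicate 2, which is 3.78 times the value of Atg17. It ranked 7 among the optimal peaks, 8 for replicate 1 and 6 for replicate 2. The peak, chr3L:5139315-5139680, lay between the genes: its summit was 130 bp upstream of CHMP2B and 94 bp from the TSS of Tcs5, so it cannot be assigned to either.

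The other ESCRT-III genes had low values. Vps2, another filament subunit, had 139.8 pooled, 64.4 in replicate 1 and 72.3 in replicate 2, with the summit 291 bp upstream and 273 bp from the TSS of Exo84. Vps60 had 96.3, 44.0 and 62.3, at 53 bp upstream and 266 bp from anchor. The peaks of shrb, the main filament protein, Vps20, which nucleates it, and Vps4, the ATPase that takes it apart, were near the lower end of the optimal set. The peak at shrb had 85.2, 32.8 and 52.0, with the summit on the TSS and 42 bp from that of Prp38. The peak at Vps20 had 81.9, 32.7 and 52.7, at 12 bp upstream, and that at Vps4 had 76.2, 32.6 and 49.1, at 35 bp inside the gene. Vps4 was the lowest of the 36, and it shared its peak with CG7772, whose TSS was 466 bp away. Apart from CHMP2B, the group had no gene in both replicate lists. Vps24, the remaining member, had a ranked promoter peak of 56.8, and the nearest optimal summit lay 521 bp away.

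Each of the earlier ESCRT complexes had 1 gene with a peak. Hrs (FBgn0031450), which binds ubiquitinated cargo, had a peak at chr2L:2739927-2740070 with 217.1 pooled, 85.5 in replicate 1 and 137.1 in replicate 2, with the summit 22 bp inside the gene and no other gene sharing it. Vps28 of ESCRT-I had 177.3, 70.0 and 107.1, at 7 bp upstream, also unshared. Both were higher in replicate 2. Vps36 (FBgn0086785) of ESCRT-II had a peak at chr3L:13513110-13513307 with 392.4, 213.1 and 179.9, at 124 bp upstream, but only 18 bp from the TSS of Liprin-beta, and was higher in replicate 1. Stam, TSG101, Vps37B and lsn were below the threshold at 74.4, 63.6, 45.8 and 30.4, and Vps25 had no ranked promoter peak. TSG101 had a promoter peak in the conservative set, though with −log10 IDR of 1.79 in the pooled ranked table it fell short of the optimal threshold of 2.

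Of the 6 genes grouped with the HOPS and CORVET tethers, 5 had a peak. That grouping does not state that each is a subunit of these tethers. Outside the symbol rule, car of this group had a promoter peak, while dor and lt had none in the optimal set. Vps33B (FBgn0039335) had a peak at chr3R:25473112-25473324 with 459.1 pooled, 237.4 in replicate 1 and 217.4 in replicate 2, with the summit 232 bp upstream and 200 bp from the TSS of Fur1, a furin protease. Its partner protein in flies, Vps16B, had 89.8, 32.9 and 75.3, at 5 bp upstream and unshared. Replicate 2 gave Vps16B more than replicate 1, with a ratio of replicate 1 to 2 of 0.437. Vps16A, a core subunit of both tethers, had 150.2, 56.6 and 102.3, at 47 bp upstream and 68 bp from TrpRS, a tRNA synthetase gene. Vps39, a HOPS subunit, had 128.4, 55.8 and 72.6, at 144 bp upstream and 75 bp from eIF1A, a translation initiation factor gene. Vps8, the subunit that marks CORVET, had 84.4, 46.0 and 43.6, at 303 bp upstream and 80 bp from sfl. For Vps8 the nearer start is that of the other gene, and Vps11 had no ranked promoter peak.

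The GARP and EARP tethers, which act at the Golgi and at recycling endosomes, had 2 of 4 genes with a peak. Vps50, the subunit that marks EARP, had 454.7 pooled, 227.6 in replicate 1 and 213.4 in replicate 2, between Vps50 at 102 bp and PIG-A at 114 bp. Vps52, which both tethers contain, had 213.3, 109.1 and 99.8, with the summit 245 bp upstream but 4 bp from the TSS of Elp4. Both were higher in replicate 1 by less than 10%, with ratios of 1.07 and 1.09. Vps51 and Vps53 reached 55.7 and 41.6 in the ranked table, and the peak at Vps51 was in the list of replicate 2.

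Retromer and the Vps13 lipid transfer proteins had 1 gene each. Vps29, a retromer subunit, had 125.9 pooled, 70.1 in replicate 1 and 52.4 in replicate 2, at 35 bp upstream and 54 bp from Tfb4, a gene for a transcription factor subunit. Vps13B had 86.8, 51.9 and 22.8, at 18 bp upstream and 72 bp from eIF2Balpha, and its ratio of replicate 1 to 2 was 2.28. Neither gene had a peak in a replicate list, so both calls rest on the pooled data. Vps26 had a ranked peak of 41.8 and Vps35 none. Vps13D had 123.4 with −log10 IDR of 1.96, just under the optimal threshold, and was in the conservative set and the list of replicate 1. Vps13 reached 15.8.

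Of the 7 sorting nexins, which bind phosphoinositides on endosomes, 3 had a peak, and all 3 were in both replicate lists. Snx27 (FBgn0052758) had a peak at chrX:5737995-5738183 with 328.3 pooled, 144.7 in replicate 1 and 178.5 in replicate 2, with the summit 37 bp upstream. It was the strongest peak that no other gene shared. Snx21 had 303.8, 158.7 and 125.9, at 167 bp upstream and 401 bp from aph-1, with a further peak of 252.9 at 366 bp. Snx16 had 188.1, 95.4 and 91.9, at 30 bp upstream and 37 bp from CG4975 and CG4984. Vps45, which acts on membrane fusion proteins at endosomes, had 196.3, 95.6 and 95.0, at 160 bp upstream and 91 bp from CG9393. Snx6 reached 4.4 in the ranked table, and Snx1 and Snx17 had no ranked promoter peak.

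Snx3 (FBgn0038065), the remaining sorting nexin, differed from all other members without a call. Its strongest ranked peak, chr3R:12627711-12628085, had 769.9 pooled, 364.1 in replicate 1 and 407.6 in replicate 2. Its −log10 IDR was 5, the highest value the table gives, and it ranked 158 there. The summit lay 141 bp upstream of Snx3 and 61 bp from the TSS of Vha55, a subunit gene of the vacuolar proton pump. The peak overlapped none of the 4 thresholded sets. The list of regions excluded from those sets was not used here, so whether the peak lies in such a region was not tested. Counted from the ranked table at the same IDR, 37 members had a promoter peak. With no threshold, 54 of the 60 (90.0%) had some ranked promoter peak, against 78.4% of protein-coding genes.

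Gene arrangement moved with these counts. A head-to-head partner, that is a protein-coding gene on the other strand whose TSS lies within 1000 bp upstream, was found for 40 of the 60 members (66.7%), against 36.2% of protein-coding genes. Of those 40, 30 had a promoter peak (75.0%, against 54.6% of all genes with such a partner). Of the 20 without, 6 had one (30.0%, against 17.7%). The share of members was above that of all genes in both classes. How far the difference between members and all genes goes with the arrangement was not tested. The split was chosen after seeing the data.

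Most member peaks belonged to more than 1 promoter. In 27 of the 36 (75.0%, against 57.9% of all genes with a promoter peak) the summit also lay within 500 bp of a TSS of another protein-coding gene, and in all 27 that gene, or 1 of those genes, was the head-to-head partner. The summit was nearer to the member in 14 and nearer to the other gene in 13. The 9 strongest members all shared their peak, and the next, Snx27, did not. Among the 12 members in the upper quartile of all genes by signal, 11 shared it (91.7%, against 66.8% of all genes in that quartile). The median signal of members was 213 with sharing and 100 without. Over all genes these medians were 193 and 153. No peak lay between a pair of members, since the 36 peaks were distinct.

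The summit lay upstream of the TSS in 29 members, on it in 2 and downstream in 5. The median position was 65 bp upstream, against 93 bp for all genes, and 80.6% lay upstream, against 87.9%. By annotation 26 summits were intergenic, 9 in a 5′ UTR and 1 in an intron. Members with a summit 100 bp or more upstream (17 genes) had a median signal of 318, and the 19 with a nearer or downstream one had 126. Over all genes the values were 200 and 157.

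**Figure D3:**
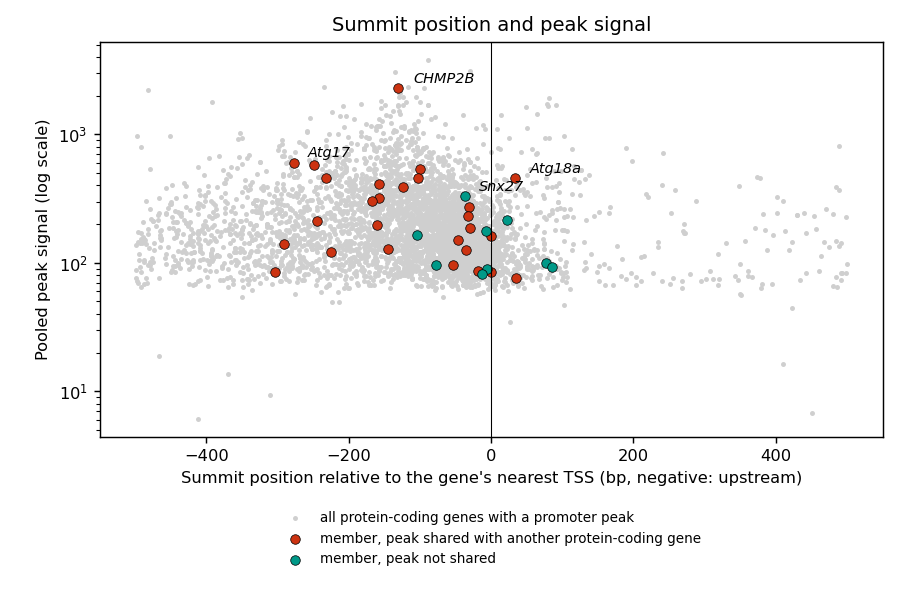
Pooled signal on a log axis against the position of the summit relative to the nearest TSS in bp, for members with a shared peak (red), members with an unshared peak (green) and all protein-coding genes with a promoter peak (grey). All 9 strongest members share their peak, and the strongest unshared one is Snx27 at 328.3.

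Base composition moved with position and signal. The 101 bp at the summit had a median G+C content of 37.6% in members and 37.6% over all genes. It was 27.7% for members with a summit 100 bp or more upstream and 41.6% for the rest, against 31.7% and 42.6% over all genes. The 12 members in the upper quartile of all genes by signal had a median of 29.2%, and the other 24 had 40.6%, against 31.7% and 39.6% over all genes. Across members, Spearman's correlation of G+C content with signal was -0.319 (n = 36), against -0.272 over all 4330 genes. Both are weak, genes are not independent replicates, and over all genes those that share a peak enter more than 1 time. The members above 50% were Snx27 (57.4%), Snx16 (57.4%), Atg8a (53.5%) and shrb (52.5%). The stretches printed for Snx27 and Atg8a cover other bases, since exons were trimmed, and hold 48.9% and 49.2%.

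**Figure D4:**
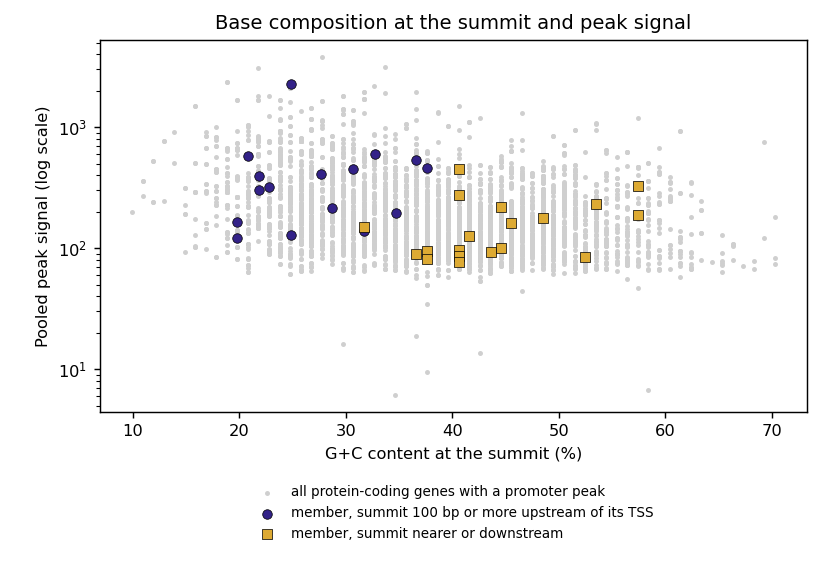
Pooled signal on a log axis against the G+C content of the 101 bp at the summit in percent, for members with a summit 100 bp or more upstream (circles), members with a nearer or downstream summit (squares) and all protein-coding genes with a promoter peak (grey). The circles have a median of 27.7% and the squares of 41.6%.

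The replicates ordered the members alike. Spearman's correlation of their signals was 0.910 over the 36 members and 0.850 over the 4294 genes with both values. Replicate 1 was higher in 18 members and replicate 2 in 18, with a median log2 ratio of -0.06 and an SD across genes of 0.48, against 0.03 and 0.53 over all genes. The direction moved with summit position. Replicate 1 was higher in 13 of the 17 members with a summit 100 bp or more upstream (76.5%, against 60.0% of all genes) and in 5 of the other 19 (26.3%, against 45.3%). The median log2 ratios were 0.13 and -0.50 in members, and 0.11 and -0.06 over all genes.

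Signal moved the same way. Among the 12 members in the upper quartile by signal, replicate 1 was higher in 10 (83.3%, against 66.9% of all genes in that quartile), and among the other 24 in 8 (33.3%, against 47.5%). Of those 12, 10 also had a summit 100 bp or more upstream (83.3%, against 62.1% of all genes in that quartile). Position and signal were thus not separate in these genes. The 4 X-linked members with an optimal promoter peak, Snx27, Atg5, Atg8a and Vps4, were all higher in replicate 2. Their median log2 ratio was -0.53, against 0.04 over 708 X-linked genes. All 4 had a summit less than 100 bp upstream or downstream of the TSS, and the 19 members of that class had a median of -0.50. With 2 libraries, a difference between replicates has no replicate of its own, and its cause was not tested.

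**Figure D5:**
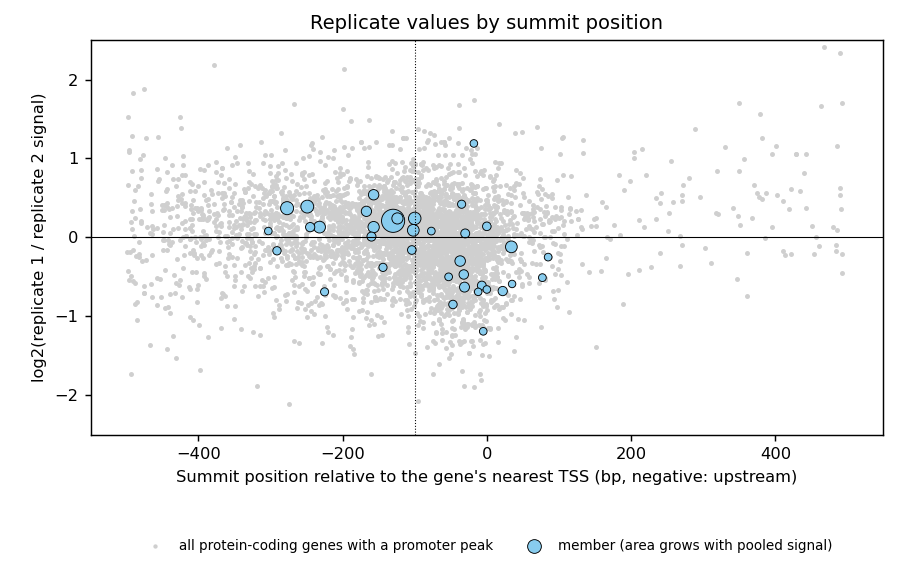
Log2 ratio of the signal in replicate 1 to that in replicate 2 against summit position in bp, for members (blue, larger with higher pooled signal) and all protein-coding genes with a promoter peak (grey), with a dotted line at 100 bp upstream. Of the members left of the line 13 of 17 lie above 0, and of those right of it 5 of 19, while 6 genes that are no members lie beyond the axis limits of 2.5.

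Some members had more than 1 peak. The counts that follow cover members only and have no share over all protein-coding genes beside them. A further optimal promoter peak was found at 5 genes: Snx21 at 252.9, Atg8a at 116.6, Atg2 at 107.1, Atg17 at 88.2 and Atg16 at 19.4. Optimal peaks within the gene but over 500 bp from its TSSs numbered 11, in 7 members. Snx27 had 3 of them, the strongest at 207.4, Atg18b and Atg1 had 2 each, up to 146.0 and 127.0, and Vps4, Atg3, Atg7 and Atg17 had 1 each, at 105.7, 95.2, 93.7 and 80.7. Of the 11, 3 lay within 500 bp of a TSS of another protein-coding gene, and so are promoter peaks of those genes: the 146.0 peak in Atg18b at CG8679, the 93.7 peak in Atg7 at CG5335 and the 105.7 peak in Vps4 at CG6847. The strongest peak within the gene exceeded the promoter value for Atg1 (127.0 against 100.2) and for Vps4 (105.7 against 76.2). Of the 24 members without a promoter peak, 2 had an optimal summit more than 500 but at most 1000 bp from a TSS, and 22 had none within 1000 bp.

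Genes of the same pathways that the symbol rule does not reach were counted from lists of textbook members. Of 58 such genes 30 had a promoter peak (51.7%, median signal 179). The share was 9 of 14 for other autophagy genes (64.3%, median 189), 11 of 20 for other endosomal sorting genes (55.0%, median 133), 7 of 17 for lysosomal genes (41.2%, median 114) and 3 of 7 for further subunits of the complexes above (42.9%, median 298). The strongest was Mon1, part of the exchange factor for Rab7, at 633 pooled, 329 in replicate 1 and 303 in replicate 2. It was followed by scat, the GARP subunit Vps54, at 612, 292 and 312. Epg5, a tether of autophagosomes, had 413, 203 and 216.

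Next in order were Rbsn-5, a Rab5 effector, at 387 pooled, 216 in replicate 1 and 181 in replicate 2, and the fusion gene Snap29 at 367, 204 and 161. Uvrag, the subunit that directs the class III kinase to endosomes, had 298, 134 and 159. The rest of the 10 strongest were the SNARE gene Ykt6 at 287, the autophagy adaptor bchs at 218, the HOPS subunit car (Vps33A) at 218 and the endosomal SNARE Syx7 at 215. Mitf, the regulator of lysosomal genes named above, had no promoter peak in the optimal set. Neither did Pi3K59F, the catalytic subunit of the class III kinase, Chmp1 of ESCRT-III, nor dor and lt of the HOPS and CORVET group.

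Other trafficking families were counted by symbol for comparison. Of the 33 genes of the vacuolar proton pump, 15 had a promoter peak (45.5%, median 176), and of the 50 Rab, Arf and Arl genes, 27 had one (54.0%, median 186). The shares of all 3 sets lay above the 31.0% of protein-coding genes, and the differences between the sets were not tested.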

How the data were processed

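Chromatin immunoprecipitation of CG3847-eGFP was sequenced in 2 biological replicates of 1 group, numbered as in the labels. Per the deposited file descriptions, the authors derived the optimal and conservative peak sets from the alignments of both replicates and a list from each replicate, on dm6 and with an exclusion list of regions. Which aligner, peak caller and control were used is not given in the sources read. As score the authors deposited a rescaled IDR with a ceiling of 1000, and its minimum of 830 in the thresholded sets goes with a global IDR of 0.01. As signal they deposited what the peak caller gave each peak, and it served to describe and rank peaks within a list. The deposited −log10 values in the ranked tables are of the global IDR, up to 5. Read counts are not given, so no depth, interval or floor could be stated.

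TSSs of all transcripts came from Ensembl 115 (FlyBase 6.54). A promoter peak needed its summit no more than 500 bp from a TSS of the gene, and its strongest one was used. Replicate values are those of the strongest ranked promoter peak of each replicate. Bases came from the RefSeq copy of Release 6. No test was applied: counts and medians stand beside those of all protein-coding genes. The pairing of summits with genes was checked on simulated positions.

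The members and gene lists were chosen with earlier results of these data known. All members with an optimal promoter peak are named with their values, those without with their strongest ranked peak, and of 58 other pathway genes the 10 strongest. Of 146 symbols in the lists, 28 matched no gene, most being other names. Python 3.11.15, pandas 2.3.3, numpy 2.4.6 and matplotlib 3.10.9 were used. Alternatives were other peak sets, IDR thresholds, TSS windows, TSS definitions, motif windows and each replicate left out.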

Additional observations from a re-analysis of the deposited data

Results flagged for a closer look

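A peak of 769.9 at Snx3 appeared in the pooled ranked table with the highest −log10 IDR that the table gives, and in none of the thresholded peak sets on which the counts rest. It was noted because a signal of this size lay in data that the main count does not use. It was present in both replicates, at 364.1 in replicate 1 and 407.6 in replicate 2. Regions on an exclusion list were left out of the thresholded sets, and whether this peak lies in one was not tested, so it is not counted among the promoter peaks.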

How the results depend on the processing

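Under 10 alternatives the number of members with a promoter peak was 23 to 38, beside 36, and the only one below 25 was the 23 left when the weaker 50% of peaks were dropped. A spread of 8.61 between the replicates served as the limit, which is smaller than the gap between their medians over the 36 members. The median signal of 183 moved by more than this limit in 8 of 11 alternatives. It was 196 in the conservative set, 105 without replicate 1, 109 without replicate 2, 164 with summits within 200 bp of a TSS, 171 within 1000 bp, 171 with any base of the peak within the window, 231 at an IDR of 0.001 and 304 with the stronger 50% of peaks. Values from a single replicate are on that list's own scale. Members that share a peak fell from 27 to 15 with the 200 bp window, since partners farther off are then not counted, and members with a motif from 24 to 14 in 100 bp windows, which hold fewer bases. Single motifs moved more, TATCGATA from 4 members to 1 in 100 bp and 8 in 300 bp. The number in both replicate lists stayed between 19 and 24 under 8 alternatives. The split by head-to-head partner was chosen after seeing the data. No paired analysis was possible because the series holds 1 group and no contrast. Peaks below the IDR threshold are not shown to be absent at this unknown depth.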
